A study of Mus musculus with 4 samples.

Results

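A group of 9 genes of the basic helix-loop-helix (bHLH) family was examined in RNA-seq counts from embryonic day 13 (E13) telencephalic tissue of C57BL/6 mice. They were chosen by name, as Neurog1, Neurog2, Neurod1, Neurod2, Neurod4, Neurod6, Nhlh1, Olig1 and Olig2 among 27293 genes counted. The data are 4 libraries, 2 labelled WT (WT 1 and WT 2) and 2 labelled STINGf/f;Nestin-Cre (cKO 1 and cKO 2). In the latter, Cre recombinase under the Nestin promoter is meant to act on floxed STING alleles in neural progenitors. The tissue also holds blood, vessel and meningeal cells, and which cells lost STING was not measured here. Neither pooling of embryos nor litter is stated, and the title of WT 2 carries an abbreviation, nes, that no source used here explains. Replicates are called separate only by their labels, so the p-values rest on the spread between these libraries. That spread is estimated for each gene with information shared across genes, so it is not the gene's own spread alone.

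bHLH factors bind DNA as pairs, mostly with a ubiquitous E protein, at a short motif called the E-box. In the dorsal telencephalon Neurog1 and Neurog2 act in dividing progenitors and commit them to the glutamatergic neuron fate. Neurod4, Nhlh1 and Neurod1 follow in newborn neurons and intermediate progenitors, and Neurod2 and Neurod6 in maturing cortical neurons. Olig1 and Olig2 act in progenitors of the ventral telencephalon, which give rise to GABAergic neurons and later to oligodendrocytes.

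The upstream sequences of the genes themselves are shown first, because E-boxes in them are the motif that this family binds. Of the 9 genes, 8 matched the RefSeq promoter table (GRCm38.p6), all but Olig1. The motif CANNTG, which reads the same on both strands, was present in the 250 bases before the RefSeq start of 4 of these 8 genes, Neurod1, Neurod2, Neurod6 and Nhlh1. It was present in 66.2% of all 32851 windows of this length in the table. CAGATG (or CATCTG on the other strand), a subset of CANNTG, was found upstream of 2 of the 8 genes, Neurod2 and Nhlh1, and in 14.4% of all windows. The sequence CACNAG (or CTNGTG), a motif of Hes repressors, was found upstream of 2 of the 8 genes, Neurod4 and Neurod6, and in 36.7% of all windows. No upstream window of the 8 held CAGCTG, which 13% of all windows held. The 4 sequences with a CANNTG motif are given 5′ to 3′ on the strand of the gene, with the motif in capitals. They end before the first transcribed base in either annotation, so that of Neurod1 is shorter.
Neurod1, minus strand, chr2:79456752-79456886: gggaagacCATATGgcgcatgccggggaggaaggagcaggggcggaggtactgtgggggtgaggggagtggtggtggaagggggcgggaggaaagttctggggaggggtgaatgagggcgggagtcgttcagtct
Neurod2, minus strand, chr11:98329649-98329895: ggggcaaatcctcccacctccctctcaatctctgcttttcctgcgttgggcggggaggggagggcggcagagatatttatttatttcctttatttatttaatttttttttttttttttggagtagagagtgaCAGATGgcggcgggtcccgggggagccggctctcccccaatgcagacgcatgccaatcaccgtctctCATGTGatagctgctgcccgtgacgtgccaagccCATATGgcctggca
Neurod6, minus strand, chr6:55681264-55681513: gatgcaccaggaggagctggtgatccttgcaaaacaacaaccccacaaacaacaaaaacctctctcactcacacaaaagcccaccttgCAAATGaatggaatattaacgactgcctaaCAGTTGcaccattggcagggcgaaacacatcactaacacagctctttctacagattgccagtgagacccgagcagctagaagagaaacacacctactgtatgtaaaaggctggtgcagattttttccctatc
Nhlh1, minus strand, chr1:172057597-172057846: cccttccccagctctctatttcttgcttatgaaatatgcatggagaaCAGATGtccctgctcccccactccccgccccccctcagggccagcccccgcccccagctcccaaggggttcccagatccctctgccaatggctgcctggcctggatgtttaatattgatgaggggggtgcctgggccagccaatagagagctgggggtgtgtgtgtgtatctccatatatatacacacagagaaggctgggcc
Neurod2 held 3 CANNTG motifs, Neurod6 held 2, and Neurod1 and Nhlh1 held 1 each. A match describes these letters only, and binding was not measured here.

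The total count on genes ran from 17209654 to 18533391 per library, and 3 counts corresponded to 0.163 to 0.173 CPM (counts scaled to library size with edgeR's TMM factors of 0.989 to 1.01). The STING gene, listed as Tmem173, was counted 20 and 19 times under the WT label, 18 and 22 times under cKO (log2 fold change 0.02, SE 0.45). A gene-level count adds exons inside and outside the floxed part, so it does not check the genotype. Y-linked transcripts (Uty, Kdm5d, Ddx3y and Eif2s3y, 4 genes) summed to 0 counts in WT 2 and to 1848 to 3002 elsewhere. Choroid plexus markers (10 of 10 in the table) summed to 70.7 CPM in WT 1 and to 13.7 to 17.3 CPM in the others. Those of meninges and mesenchyme (12 of 12) summed to 351 CPM in WT 1 and to 75.6 to 114 CPM in the others. Blood genes (8 of 8) were also highest in WT 1, at 1077 CPM against 471 to 720 CPM. No gene of these lists was at 0 in all 4 libraries, and Htr2c, Aqp1, Otx2, Cdh3, Col1a1 and Col1a2 were called lower in cKO at the thresholds given below. Cortical markers were high in every library. Progenitor markers such as Pax6 and Nes (10 of 10) summed to 2712 to 2971 CPM, and neuron markers such as Tubb3 and Tbr1 (10 of 10) to 5547 to 6543 CPM. Fewer cells of a type and less RNA per cell cannot be told apart in bulk tissue.

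Per length of transcript, Neurod6 was the highest of the 9 genes and Neurod4 the lowest. The mean over the 4 libraries was 263 RPKM (CPM divided by the exon length in kilobases) for Neurod6, with a range of 213 to 313 RPKM. Neurod2 followed at 158 RPKM (129 to 170 RPKM) and Neurog2 at 128 RPKM (124 to 134 RPKM), and the ranges of these 2 genes overlapped. Nhlh1 stood at 27.4 RPKM (24.4 to 29.7 RPKM), apart from its neighbours on both sides. Neurog1 at 12.1 RPKM, Olig2 at 11.3 RPKM and Neurod1 at 10.1 RPKM could not be ordered, since the range of Neurog1 (11.2 to 12.8 RPKM) lay within those of Olig2 (6.83 to 14.7 RPKM) and Neurod1 (6.83 to 13.9 RPKM). Olig1 had a mean of 2.58 RPKM and Neurod4 of 1.05 RPKM, again with separate ranges. Per kilobase, each library held 18.2 to 31.6 times as much Neurod6 as Neurod1.

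No difference between cKO and WT was called for any of the 9 genes. All 9 passed the filter on low counts, and 0 met both of the study's thresholds (2-fold, and p up to 0.05 before adjustment), which 0.811% of the 16145 genes tested met (131 genes, 108 lower and 23 higher in cKO). No gene of the table had an adjusted p under 0.05 in edgeR's quasi-likelihood test (0%, with 199 genes at an unadjusted p under 0.05 and 0 adjusted calls in DESeq2). The adjusted p of each of the 9 genes was 0.9999, and the unadjusted p ran from 0.267 for Neurod1 to 0.995 for Neurod6. Their log2 fold changes ran from -0.35 to 0.16 with a median of -0.09, beside a median of -0.01 over all genes tested, and 3 were above 0 and 6 below. In 8 of the 9 genes the ratio between 2 libraries of the same label was larger than that between the means of the labels, which was so in 87.5% of all genes tested. The exception was Neurog2. With 2 libraries a group, no exact permutation test can give a p below 0.333.

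**Figure D1:**
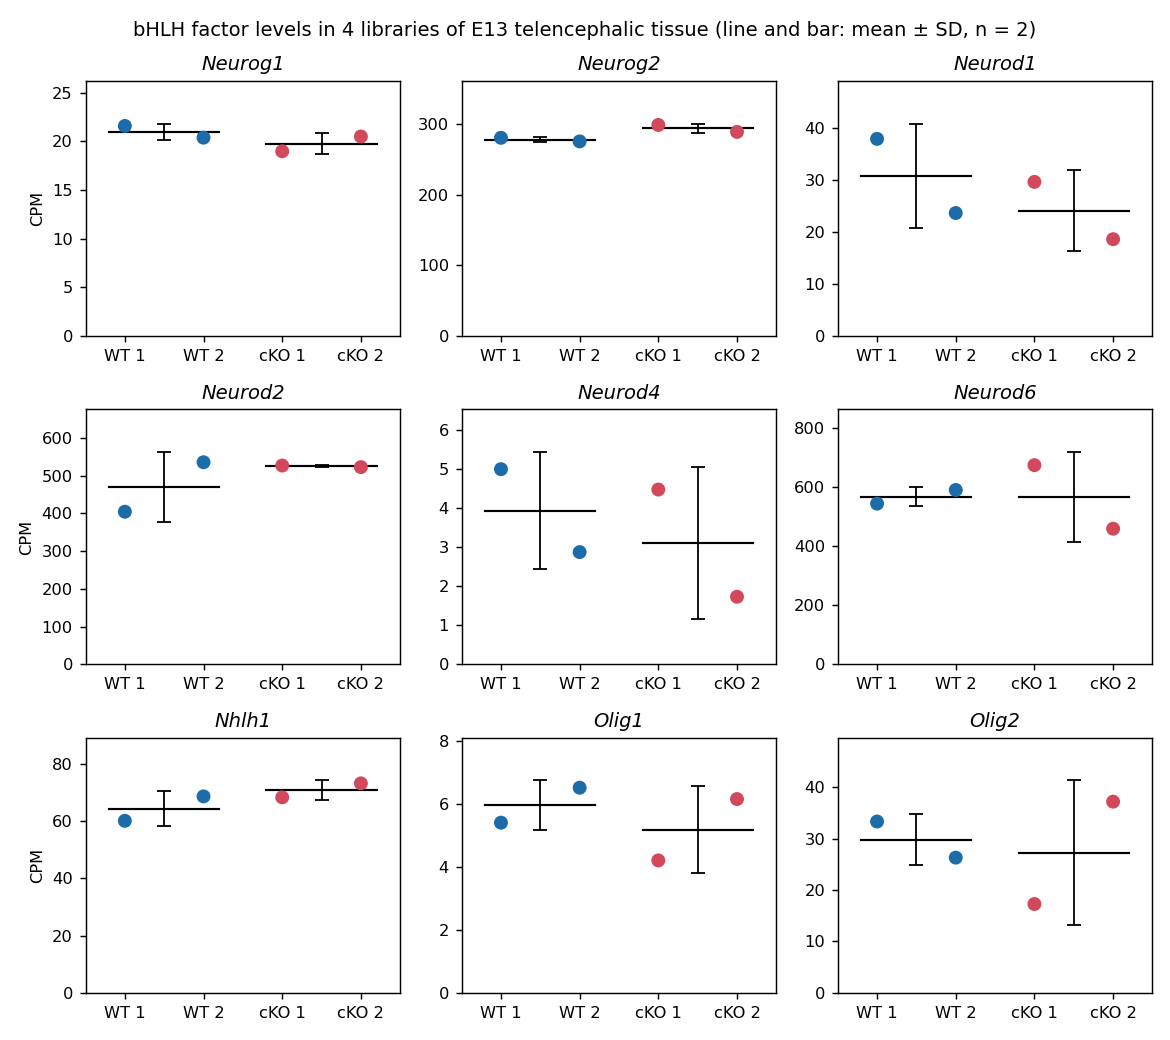
Level of each of the 9 bHLH genes in CPM (y axes, from 0) in the libraries WT 1, WT 2, cKO 1 and cKO 2 (x axes), with the mean (line) and SD (bar) of each label, n = 2. The libraries of the 2 labels overlap in 8 of the 9 panels, and only in Neurog2 do both cKO points lie above both WT points.

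In CPM, Neurog2 had the narrowest range of the 9 genes, 1.08-fold from the lowest to the highest library, a rank it lost to Nhlh1 (1.17-fold against 1.22-fold) with offsets corrected for GC content. This driver of cortical neurogenesis (ENSMUSG00000027967, chromosome 3, 127633135 to 127635631, plus strand, 2 exons) gave 4881, 5075, 5469 and 5165 counts (order WT 1, WT 2, cKO 1, cKO 2). In CPM these were 281, 276, 299 and 289, so both cKO libraries lay above both WT libraries. It was the only gene of the 9 (11.1%) whose groups did not overlap, while 21.8% of all genes tested did not. The mean was 278 ± 3.61 CPM in WT and 294 ± 6.96 CPM in cKO (SD, n = 2), a log2 fold change of 0.08 (SE 0.14). The 95% interval ran from 0.839-fold to 1.33-fold. In that correction, for the GC content of transcripts as described after the neuronal genes, the levels were 290 and 277 CPM in WT and 320 and 262 CPM in cKO, which overlap.

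Neurog1, the related proneural factor, was also even (ENSMUSG00000048904, chromosome 13, 56250478 to 56252163, minus strand, 1 exon). Both WT libraries gave 375 counts, cKO 1 gave 347 and cKO 2 gave 366. The mean was 21 ± 0.850 CPM in WT and 19.7 ± 1.07 CPM in cKO (SD, n = 2), with a log2 fold change of -0.09 (SE 0.19, 95% interval 0.698-fold to 1.27-fold). All 4 libraries lay between 19 and 21.6 CPM.

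Neurod1 and Neurod4, the factors of the step after Neurog2, varied most among the neuronal genes, and they did so within each label. Neurod1 (ENSMUSG00000034701, chromosome 2, 79452521 to 79456751, minus strand) was counted 660 times in WT 1, 436 times in WT 2, 543 times in cKO 1 and 333 times in cKO 2. These were 38.0, 23.7, 29.7 and 18.6 CPM, so the libraries with number 1 were higher than those with number 2 in both labels and the labels overlapped. WT 1 was 1.60 times as high as WT 2, and cKO 1 was 1.59 times as high as cKO 2. The mean was 30.8 ± 10.1 CPM in WT and 24.2 ± 7.81 CPM in cKO (SD, n = 2). The log2 fold change of -0.35 (SE 0.29) was the lowest of the 9, with a 95% interval from 0.490-fold to 1.26-fold, and it was -0.72 without cKO 1 and 0.03 without WT 1. The whole of Neurod1 lies within the annotated span of Cerkl on the same strand, which had 1 to 6 counts. How reads within both genes were assigned is not given in the sources used here.

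Neurod4 (ENSMUSG00000048015, chromosome 10, 130268152 to 130280240, minus strand) was the scarcest member. The 4 libraries gave 87 (WT 1), 53 (WT 2), 82 (cKO 1) and 31 (cKO 2) counts. These were 5.0, 2.88, 4.48 and 1.73 CPM, the same order of libraries as for Neurod1. At 31 counts, counting error alone was 18% of the value. The mean was 3.94 ± 1.5 CPM in WT and 3.11 ± 1.94 CPM in cKO (SD, n = 2). Its log2 fold change was fitted as -0.34 (SE 0.50), and its 95% interval of 0.355-fold to 1.76-fold was the widest of the 9. It ran from -1.18 without cKO 1 to 0.20 without cKO 2, and was 0.11 without WT 1. For these 2 genes a difference of 2-fold in the lower direction lay within the interval. For the other 7 genes the interval ended short of 2-fold in both directions.

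**Figure D2:**
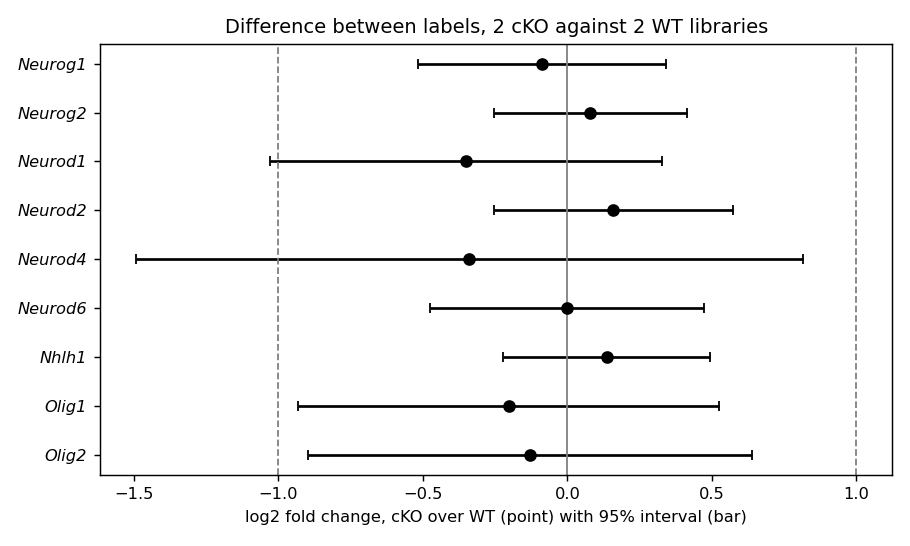
Log2 fold change of cKO over WT for the 9 genes (x axis), with 95% intervals of the quasi-likelihood fit as bars and 2-fold changes as dashed lines. Every interval crosses 0, and those of Neurod1 and Neurod4 alone reach beyond the lower dashed line.

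Nhlh1, a marker of neurons just after their last division (ENSMUSG00000051251, chromosome 1, 172052292 to 172057573, minus strand), did not follow these 2 genes. It was counted 1046 times in WT 1, 1265 times in WT 2, 1251 times in cKO 1 and 1309 times in cKO 2, or 60.2, 68.7, 68.4 and 73.3 CPM. WT 1 was lowest and cKO 2 highest, where Neurod4 was at its highest and lowest. The mean was 64.4 ± 6.04 CPM in WT and 70.8 ± 3.45 CPM in cKO (SD, n = 2), a log2 fold change of 0.14 (SE 0.16, 95% interval 0.857-fold to 1.41-fold).

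Neurod2, a factor of maturing cortical neurons (ENSMUSG00000038255, chromosome 11, 98325415 to 98329648, minus strand), was set apart in CPM by WT 1 alone. WT 1 gave 7028 counts, WT 2 gave 9854, cKO 1 gave 9632 and cKO 2 gave 9331. At 404 CPM, WT 1 was below the other 3 libraries, which lay between 522 and 535 CPM. The mean was 470 ± 92.6 CPM in WT and 524 ± 2.99 CPM in cKO (SD, n = 2). The log2 fold change of 0.16 (SE 0.18, 95% interval 0.838-fold to 1.49-fold) had the largest positive value of the 9, and it was -0.030 without WT 1. WT 1 is also the library with the highest choroid plexus, mesenchyme and blood markers, and their part in this value was not tested.

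Neurod6, a second factor of maturing cortical neurons (ENSMUSG00000037984, chromosome 6, 55677822 to 55681263, minus strand), had the same mean in both labels and a wide spread in one. WT 1 gave 9450 counts, WT 2 gave 10856, cKO 1 gave 12322 and cKO 2 gave 8195. The 2 cKO libraries were the highest and the lowest of the 4, at 673 and 459 CPM, and the WT libraries lay between them at 543 and 590 CPM. The mean was 567 ± 32.6 CPM in WT and 566 ± 152 CPM in cKO (SD, n = 2). Its log2 fold change was fitted as -0.00 (SE 0.21, 95% interval 0.719-fold to 1.39-fold), and it was -0.30 without cKO 1 and 0.26 without cKO 2. Of 10 cortical neuron markers, 5 were lowest in cKO 2 and 3 in cKO 1. Dcx, a microtubule protein of migrating neurons, stood at 524 CPM in cKO 2 against 855 to 1114 CPM in the others. Tubb3, a neuronal tubulin, was at 2274 CPM in cKO 2 against 1693 to 2053 CPM. With offsets corrected for GC content, Dcx was still lowest in cKO 2 at 655 CPM, while Tubb3 was no longer highest there, at 2028 CPM against 2049 CPM in WT 2. Stmn2, of the same list, was highest in cKO 2 before correction (588 CPM) and after it (719 CPM). From lowest to highest library, its range grew from 1.30-fold to 1.78-fold. The range of Dcx fell from 2.13-fold to 1.68-fold and that of Tubb3 from 1.34-fold to 1.12-fold.

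Over the genes tested, the base composition of the transcripts moved with the differences between libraries. Over 16120 genes tested (99.8%) with a GC content in GENCODE M21, the median log2 ratio of cKO 1 to cKO 2 was 0.44 in the lowest and -0.28 in the highest of 5 bins of GC content, each of 3224 genes. Between WT 1 and WT 2 these medians were 0.11 and -0.04. Neurod4 (38.0% GC), Neurod6 (41.9%) and Neurod1 (43.6%) belong to the lowest bin. Neurog1, Neurog2, Neurod2, Olig1 and Olig2 (55.9% to 61.1%) belong to the highest, and Nhlh1 (54.6%) to the one below it. With offsets corrected for GC content, the ratio of cKO 1 to cKO 2 went from 1.47 to 1.1 for Neurod6, from 1.59 to 1.28 for Neurod1 and from 2.58 to 1.64 for Neurod4. The ratio of WT 1 to WT 2 changed less, from 1.60 to 1.57 for Neurod1 and from 1.74 to 1.51 for Neurod4. For Neurog2 and Neurod2 the ratio of cKO 1 to cKO 2 went the other way, from 1.03 to 1.22 and from 1.01 to 1.25. Some orders of libraries given above changed too. Corrected, Neurod6 stood at 509, 583, 608 and 551 CPM (order WT 1, WT 2, cKO 1, cKO 2), so WT 1 was lowest. Neurod2 stood at 420, 533, 578 and 462 CPM, and Nhlh1 at 62.0, 69.0, 72.2 and 67.4 CPM. In both, WT 1 was still lowest and cKO 1 was highest. The corrected log2 fold changes of cKO over WT ran from -0.30 for Neurod1 to 0.13 for Neurod2, and 0 of the 9 genes were called. This correction was chosen after the data were seen.

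**Figure D3:**
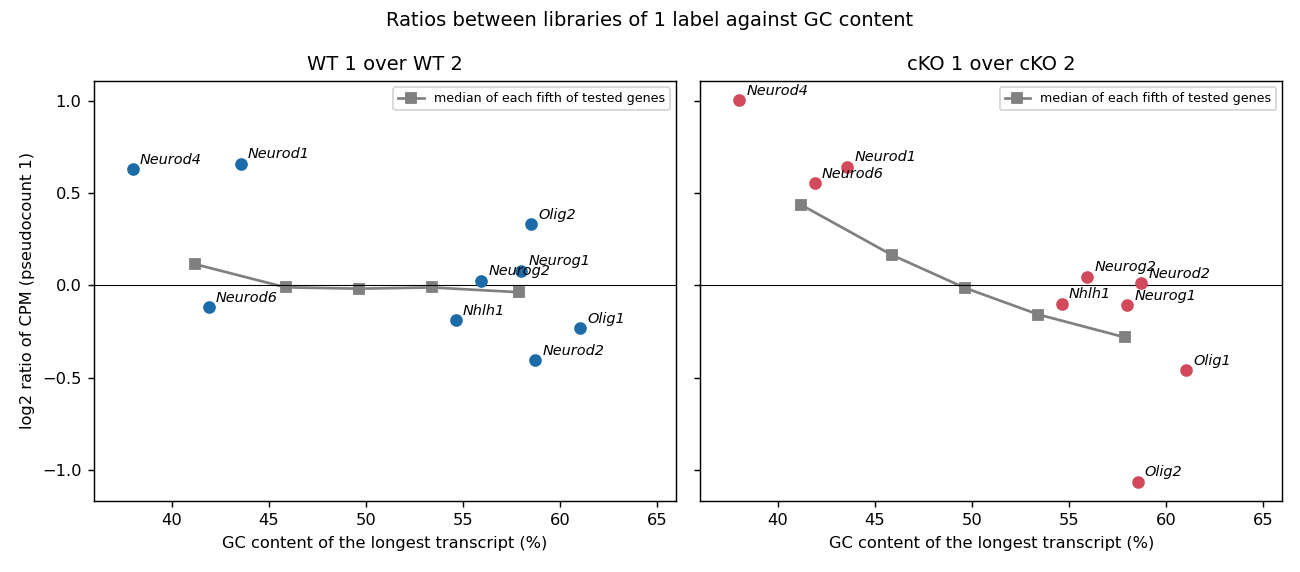
Log2 ratio of CPM (y axis, pseudocount 1) between the 2 WT libraries (left) and the 2 cKO libraries (right) against the GC content of the longest transcript in percent (x axis), with the 9 genes as points and the median of each of 5 GC bins of tested genes as grey squares. The grey line falls from 0.44 to -0.28 in the cKO pair, and Neurod4, Neurod6 and Neurod1 lie at its GC-poor end with higher levels in cKO 1.

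In CPM, Olig2 had the largest ratio between 2 libraries after Neurod4, and it lay within the cKO label. This ventral factor (ENSMUSG00000039830, chromosome 16, 91225550 to 91228677, plus strand) was counted 579 times in WT 1, 484 times in WT 2, 316 times in cKO 1 and 664 times in cKO 2. These were 33.3, 26.3, 17.3 and 37.2 CPM, so the cKO libraries were the lowest and the highest of the 4. The mean was 29.8 ± 4.96 CPM in WT and 27.2 ± 14.1 CPM in cKO (SD, n = 2), with a log2 fold change of -0.13 (SE 0.33, 95% interval 0.536-fold to 1.56-fold). Without cKO 2 it was -0.77, with an unadjusted p of 0.00668 and an adjusted p of 0.9993 in edgeR's fit, and without cKO 1 it was 0.32. With offsets corrected for GC content, cKO 2 was still the higher cKO library, at 32.9 CPM against 18.9 CPM. WT 1 was then the highest library at 34.6 CPM, and WT 2 stood at 26.2 CPM. The largest ratio, 1.83-fold, then lay between WT 1 and cKO 1, across the labels.

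Olig1, its neighbour on chromosome 16 (ENSMUSG00000046160, 91269772 to 91271933, plus strand, 1 exon), gave 94 (WT 1), 120 (WT 2), 77 (cKO 1) and 110 (cKO 2) counts. At 5.41, 6.52, 4.21 and 6.16 CPM it also was lowest in cKO 1. The mean was 5.96 ± 0.785 CPM in WT and 5.18 ± 1.38 CPM in cKO (SD, n = 2), with a log2 fold change of -0.20 (SE 0.32, 95% interval 0.525-fold to 1.44-fold). Its last 157 bases overlap a gene on the opposite strand, and the strand used in counting is not given in the sources used here.

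Of the 12 ventral telencephalon genes, 9 were also lowest in cKO 1. The other 3 were lowest in cKO 2, Gad1 at 54.9 CPM against 57.5 CPM in cKO 1, Isl1 at 30.8 against 34.8 CPM and Sp8 at 12.4 against 20.3 CPM. In WT 1 and WT 2, Gad1 stood at 79.8 and 73.4 CPM and Isl1 at 40.2 and 41.9 CPM. Sp8 stood there at 23.1 and 22.7 CPM. These 3 were among 4 of the 12 whose cKO libraries both lay below both WT libraries. Over all genes tested, 21.8% did not overlap in either direction. Among 10867 genes whose count reached 100 in each library, the one whose centred log2 profile over the 4 libraries lay nearest to the mean of Olig1 and Olig2 was Dlx2, a homeobox factor of ventral progenitors, at a Euclidean distance of 0.0148, followed by Npy and Fmnl1. Dlx2 stood at 179, 175, 115 and 201 CPM in WT 1, WT 2, cKO 1 and cKO 2. With offsets corrected for GC content, Dlx2 stood at 186, 174, 126 and 178 CPM, still lowest in cKO 1 but highest in WT 1. Dlx2 (58.3% GC) is in the highest GC bin, as Olig1 and Olig2 are. The profiles and the other levels of this paragraph were not corrected for GC content. Nkx2-1, which marks the medial ganglionic eminence, stood at 80.9, 56.2, 14.3 and 65.3 CPM. All 12 of 12 genes of the ventral list were tested and 0 were called, beside 0.811% of all genes tested. Of their log2 fold changes, 11 were below 0, with a median of -0.26. The median over all genes tested was -0.01. Their summed level was 714 CPM in cKO 1 and 1052 to 1096 CPM in the other 3 libraries, and none was at 0 in all libraries. The share of ventral tissue in each dissection is not given in the sources used here, and its part in the Olig values was not tested. Of the oligodendrocyte lineage list, 5 of 6 genes were tested and 0 called, beside the same 0.811% of all genes tested. Nkx2-2 stood at 0 to 0.280 CPM and Sox10 at 1.15 to 2.82 CPM.

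**Figure D4:**
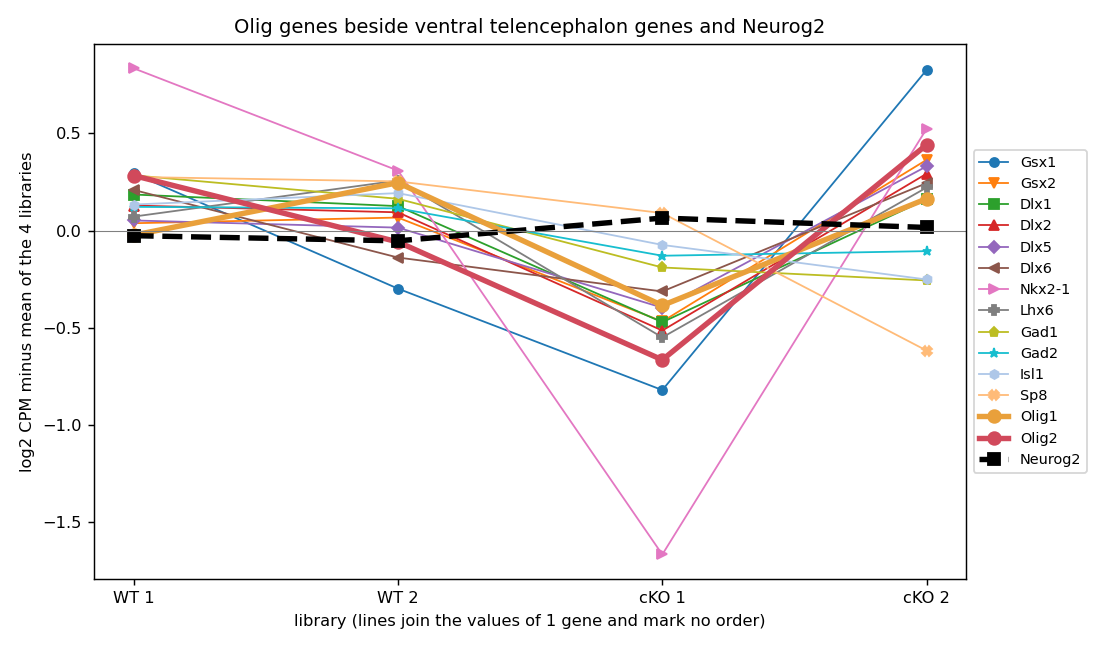
Log2 CPM of Olig1, Olig2 and Neurog2 (thick lines) and of the 12 ventral telencephalon genes (thin lines) (y axis, minus each gene's mean over the 4 libraries) in each library (x axis). Olig1, Olig2 and 9 of the 12 ventral genes are at their lowest in cKO 1, down to 14.3 CPM for Nkx2-1, while Gad1, Isl1 and Sp8 are lowest in cKO 2 and Neurog2 stays near 0. The levels are not corrected for GC content.

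The balance of the 3 groups within a library was then compared per kilobase. The summed RPKM of the 5 neuronal genes (Neurod1, Neurod2, Neurod4, Neurod6 and Nhlh1) over that of Neurog1 and Neurog2 was 3.03 and 3.55 for the WT libraries, against 3.58 (cKO 1) and 2.93 (cKO 2). The mean was 3.29 ± 0.363 in WT and 3.26 ± 0.456 in cKO (SD, n = 2). Without correction for GC content, the difference between labels was smaller than the spread in either. Whether this holds after correction was not tested. Neurod6 (41.9% GC) is in the lowest GC bin and Neurog2 (55.9%) in the highest. With offsets corrected for GC content, the excess of cKO 1 over cKO 2 shrank for Neurod6 and grew for Neurod2 and Neurog2. No ratio or profile of this paragraph was corrected. Neurod6 and Neurod2 make up most of the numerator. For the step from Neurog2 to Neurod1 the ratio was 0.110 and 0.0701 in WT and 0.0810 and 0.0526 in cKO, again with overlap. The ratio of Olig1 and Olig2 to Neurog1 and Neurog2 was 0.106 ± 0.00999 in WT and 0.0919 ± 0.0447 in cKO (SD, n = 2), lowest in cKO 1 at 0.0603 and highest in cKO 2 at 0.124. By profile over 4 libraries, the genes nearest to the mean of Neurog1 and Neurog2 were Rab11fip5, Fam213a and Atp6v1g1. Those nearest to the mean of the 5 neuronal genes were Pnisr, Appbp2 and Gpkow. That mean was highest in cKO 1 and lowest in cKO 2, and not all 5 genes followed it. Nhlh1 was highest in cKO 2, and Nhlh1 and Neurod2 were lowest in WT 1.

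The partners, inhibitors and targets of these factors were tested in the same fit. Of 49 genes on 5 lists, 48 were in the table and 41 passed the filter. None was called in either direction, beside 0.811% of all genes tested, with 16 above 0 and 25 below. The E proteins, with which the 9 factors pair, had 3 of 3 genes tested and a median log2 fold change of 0.05. Tcf3 stood at 326, 335, 332 and 393 CPM in WT 1, WT 2, cKO 1 and cKO 2 (log2 fold change 0.13), Tcf4 at 466, 477, 575 and 404 CPM (0.05) and Tcf12 at 185, 206, 214 and 156 CPM (-0.08). In all 3 genes the labels overlapped. The Id proteins, which lack a DNA-binding region and take E proteins away, had 4 of 4 genes tested with a median of -0.32. Id3 stood at 25.5, 12.5, 9.29 and 14.7 CPM and had the lowest log2 fold change of the 4 (-0.67, SE 0.36), followed by Id1 (-0.44, SE 0.37). Id4 was the most abundant and was higher in the libraries with number 1, at 329 and 226 CPM in WT and 305 and 179 CPM in cKO, as Neurod1 and Neurod4 were. Id2 stood at 101 and 136 CPM in WT and 125 and 123 CPM in cKO.

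The Hes and Hey repressors of the Notch pathway, which hold proneural genes down in progenitors, had 6 of 7 genes tested and a median log2 fold change of -0.04. Hey1 had the highest value of that list (0.24, SE 0.16), with 53.3 and 48.5 CPM in WT and 60.7 and 59.5 CPM in cKO. Heyl had the lowest (-0.41, SE 0.26), with 10.9 and 11.5 CPM in WT and 7.16 and 9.74 CPM in cKO. Hes6, which promotes neurogenesis, stood at 130, 126, 115 and 155 CPM in WT 1, WT 2, cKO 1 and cKO 2. Other neural bHLH factors, a list not limited to activators, had 8 of 14 genes tested and a median of -0.13. Bhlhe22, a factor of cortical neurons, had a log2 fold change of 0.00 (SE 0.15), and Bhlhe41 the largest change of the list (-0.76, SE 0.48) at 0.616 to 1.30 CPM. Olig3, at 0.656 to 1.51 CPM, had -0.34 (SE 0.52).

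Targets and partners of the proneural factors had 20 of 20 genes tested and a median log2 fold change of -0.02. The lowest value was that of Cdkn1c, a cell cycle inhibitor (-0.45, SE 0.26), at 64.5 CPM in WT 1 and 34.1 to 40.8 CPM in the other libraries. Elavl4, a neuronal RNA-binding protein, followed (-0.31, SE 0.35), at 60.4 CPM in cKO 2 and 121 to 148 CPM in the others. Nfix and Rcor2 had the highest CPM of the list, though per kilobase Rnd2 (123 RPKM) lay above Nfix (91.2 RPKM). They had log2 fold changes of 0.29 (SE 0.16) and 0.17 (SE 0.16). In both, the cKO libraries lay above the WT libraries. This was so for 5 of the 20 genes of the list, and for 1 they lay below. Over all genes tested, 21.8% did not overlap in either direction.

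**Figure D5:**
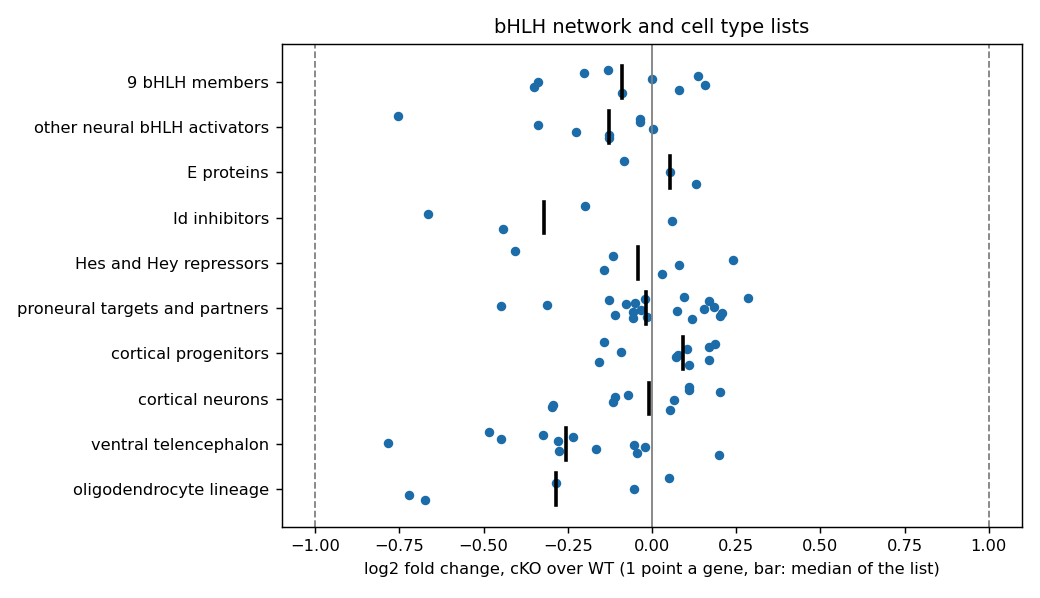
Log2 fold change of cKO over WT (x axis) for each tested gene of the 9 bHLH members and of 9 lists of related genes and cell type markers (rows), with the median of each list as a black bar and 2-fold changes as dashed lines. No gene shown reaches a 2-fold change, and the medians lie between -0.32 for the Id inhibitors and 0.09 for cortical progenitors. The row labelled other neural bHLH activators holds the list of other neural bHLH factors, which is not limited to activators.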

How the data were processed

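RNA-seq of 4 libraries of mouse telencephalic tissue was analysed from the deposited counts of reads per gene, which the authors made without normalization. The submitters' processing notes name TopHat2 2.0.12, Bowtie2 2.2.3, HTSeq 0.6.0 and the build mm9, but 97.3% of the positions in the table match GRCm38 (GENCODE M21) within 1 base, so they are given as GRCm38. Blank lines (11) were left out. The counts of all 9 genes were identical in a second deposited table of cKO 1 and WT 1. The authors' own fold changes, p-values and normalized columns in both tables were not used.

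The quasi-likelihood test of edgeR 4.0.16 was run under R 4.3.3 (TMM, filterByExpr, no covariate, Benjamini-Hochberg adjustment over 16145 genes), at the thresholds of the study's methods. DESeq2 1.42.0 was an alternative. RPKM used the union of exons in GENCODE M21. Single libraries were compared with a pseudocount of 1 CPM. The procedure was tested on simulated data. The members, lists and tests were chosen with earlier results of these data known. Named genes are the members, called list genes, and, per list of related bHLH genes, the 2 largest changes and the 2 highest levels. Profiles were compared by Euclidean distance. Tmem173, the Y-linked genes, Dcx, Tubb3, Stmn2, Nkx2-1, Gad1, Isl1, Sp8, Rnd2, Nkx2-2, Sox10, Cerkl, Pax6, Nes and Tbr1 were named outside this rule, some after their values were seen. A gene that this rule names is not reported here. Upstream sequences come from RefSeq. Intervals cover the model's error only.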

Additional observations from a re-analysis of the deposited data

How the results depend on the processing

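No member was called under any of the 11 alternative fits, and of 99 member values 85 kept the sign of the reported log2 fold change. Neurog1, Neurog2 and Nhlh1 kept it in all 11 fits. The log2 fold change without WT 1 was 0.029 for Neurod1, -0.030 for Neurod2, 0.11 for Neurod4 and 0.05 for Olig2. Without cKO 2 it was 0.20 for Neurod4 and 0.26 for Neurod6, without cKO 1 it was 0.046 for Olig1 and 0.32 for Olig2, and without WT 2 it was 0.07 for Neurod6. Neurod6, at -0.00 as reported, was 0.0038 with RLE normalization or DESeq2, 0.0026 with no filter on low counts (at least 1 count somewhere), 0.0033 with at least 10 counts in every library and 0.087 with GC-corrected offsets, an alternative added after the data were seen. With 1 library left out the values ran from -0.72 to 0.029 for Neurod1, -0.030 to 0.38 for Neurod2, -1.18 to 0.20 for Neurod4, -0.30 to 0.26 for Neurod6, -0.49 to 0.046 for Olig1 and -0.77 to 0.32 for Olig2. The lowest unadjusted p of a member in any alternative was 0.00668 (Olig2 without cKO 2, adjusted p = 0.9993 in edgeR), and the lowest adjusted p in edgeR was 0.288 (Neurod1 without cKO 1). A fit without 1 library assumes that the lone library varies like those of the other label. The cause of these changes was not tested beyond the values given for GC content.

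The 131 genes called at the study's thresholds became 405 with no filter, 72 with at least 10 counts in every library and 65 with DESeq2, and ran from 100 to 517 with 1 library left out (100 without WT 1, of which 48 were lower in cKO, 383 without WT 2, 517 without cKO 1 and 111 without cKO 2). Genes at an adjusted p under 0.05 in edgeR numbered 0 as reported, 65 with no filter, and 0 to 80 with 1 library left out (80 without WT 2, 7 without WT 1). The labels share replicate numbers, but no source used here ties them to litters, and the differences between numbers 1 and 2 in both labels correlated across genes with a coefficient of 0.139. With the replicate number as a block, 208 genes were called and 5 had an adjusted p under 0.05, while the members called stayed at 0 and Neurod1 had a log2 fold change of -0.35 (unadjusted p of 0.0988 in edgeR). With coding length in place of exon length the ratio of neuronal to proneural genes was 3.05 in WT and 3.05 in cKO, and that of Olig genes 0.101 and 0.0873. These ratios were not corrected for GC content either. All 54 ratios between single libraries moved by less than counting error with a pseudocount of 0.1 CPM. At these depths counting error was 1.1% for Neurod6 and 18% for Neurod4 in their lowest libraries.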
